A study of Mus musculus with 65 samples.

Results

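Gene expression in p3 neural progenitors (NPs) was compared between day 4 and day 5 of differentiation. The libraries were chosen by their labels alone, as every p3 library of day 4 and of day 5, and these are 10 of the 65 libraries of the study. Day 4 gave 1 library at 100 nM SAG (replicate 3) and 3 at 500 nM, and day 5 gave 3 libraries at each concentration. All cells came from HM1, 1 line of mouse embryonic stem (ES) cells grown on feeder fibroblasts. They were directed to neuromesodermal progenitors (NMPs) by day 3 and then cultured with retinoic acid and SAG, a small-molecule agonist of Smoothened that stands in for Sonic hedgehog (Shh). p3 cells were fixed, stained inside the cell and sorted as SOX2+, NKX2.2+ and OLIG2-. Their polyadenylated RNA was amplified as full-length cDNA and sequenced, with ERCC spike-in RNA added. The study describes replicates of its chromatin accessibility libraries as independent differentiations. The labels of the RNA libraries give a number alone, so how much of the spread between libraries is technical is not known. The p-values of the main gene tests use a spread pooled over the 25 groups of all 65 libraries, not that of the 10 p3 libraries alone. These groups keep the SAG concentrations apart. A gap between the 100 nM library and the other libraries of day 4 is therefore not part of that spread or of the SE.

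p3 is the most ventral domain of neural progenitors beside the floor plate of the embryonic neural tube. It requires strong Shh signalling, is marked by the homeodomain protein NKX2.2, and forms V3 interneurons in the spinal cord and visceral motor neurons and serotonergic neurons in the hindbrain. Retinoic acid drives the exit from the neuromesodermal state and the opening of the 3′ part of the Hox clusters, which give cells their position along the head-to-tail axis. Progenitors renew under Notch signalling, and proneural factors move single cells out of the cycle to become neurons.

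The 10 libraries held 7684611 to 13484815 reads assigned to genes. Values are normalised reads, that is reads divided by 1 size factor per library, and 1 read is worth 0.717 to 1.36 of them over all libraries. The library at 100 nM of day 4 had reads in 9718 genes, the fewest of all 65 libraries, whose median was 12891. The 3 libraries at 500 nM of day 4 had reads in 12319, 12891 and 13004 genes. On day 5 the number was 12453, 10571 and 12193 genes at 100 nM, and 13424, 12474 and 13751 genes at 500 nM. The day 5 mean exceeded that of day 4 by 494.7 genes, with p = 0.514 in a two-sided exact permutation test of 6 against 4 libraries. Without the library at 100 nM of day 4 the difference was -260.3 genes, with p = 0.833 in the same exact test. Calls are therefore given with and without that library. The days also differ in their share of 100 nM libraries, so a comparison at 500 nM alone, 3 libraries on each day, stands beside the main counts. In bulk samples fewer cells of a type and less RNA per cell cannot be told apart.

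Of 13964 genes tested, 340 were called between the days (2.43%), 308 of them higher on day 5 (2.21%) and 32 lower (0.229%). A gene was called at an adjusted p below 0.01 in limma and a change of more than 2-fold. Without the 100 nM library of day 4 the count was 41 genes (0.294%), 29 higher (0.208%) and 12 lower (0.0859%). At 500 nM alone it was 24 genes, 18 higher and 6 lower. When the 10 p3 libraries alone were fitted, by day only, 6 genes were called, and 9 without the 100 nM library. The 2 fits with and without the 100 nM library shared 38 genes (0.272%), 27 higher and 11 lower, and 22 of the 38 were also called at 500 nM alone. Of the 302 genes that lost their call, 281 had been higher on day 5. The sign of the change stayed the same without the library in 302 of the 340 called genes, and not in the others. Among the 308 higher genes, 157 were at 0 in the 100 nM library while all 3 others of day 4 had reads, which is 51.0% against 14.3% of all tested genes. The same held for 5 of the 38 shared genes. The median log2 change of all tested genes was 0.09 with the library and -0.07 without it. Over all 13964 tested genes, 2310 had an unadjusted p below 0.05 in limma, edgeR called 365 and DESeq2 called 1810. Counts of these kinds given below for a list are to be read beside these. The libraries of the 2 days did not overlap for 340 tested genes (2.43%), 184 higher (1.32%) and 156 lower (1.12%) on day 5, and for 29 of the 38.

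**Figure D1:**
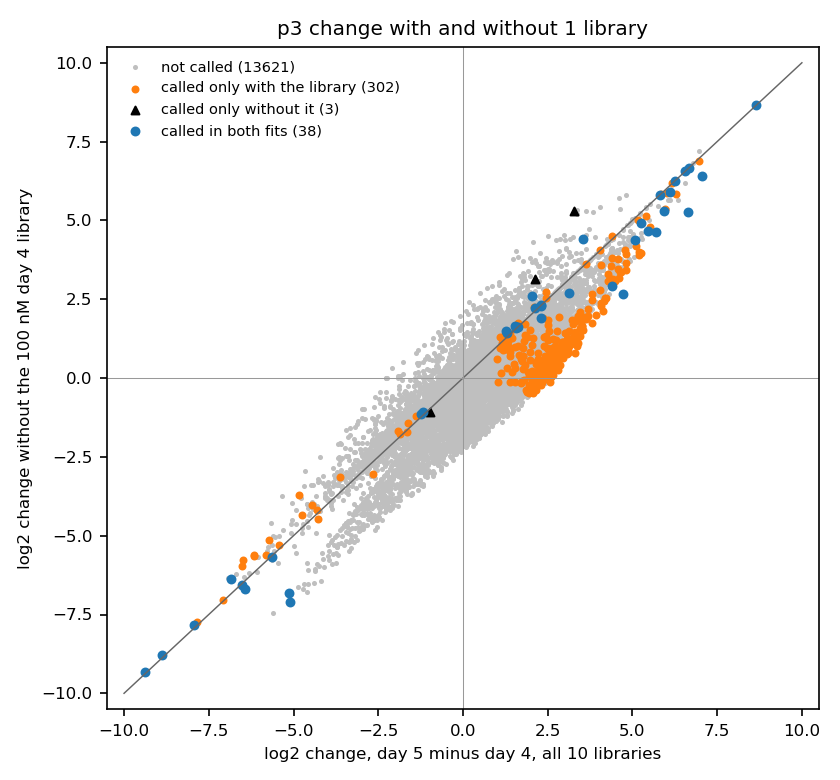
Log2 change from day 4 to day 5 in p3 of each of the 13964 tested genes, fitted with all 10 libraries (horizontal axis) and without the 100 nM library of day 4 (vertical axis). The 38 genes called in both fits (blue) keep their sign, some of them off the diagonal, such as Gadd45g (4.72 with the library and 2.67 without) and Ppm1n (-5.11 and -7.10). Many of the 302 called only with that library (orange) lie below the diagonal on the right, and 3 genes (black) were called only without it.

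Among the 11 genes that fell in both fits were Fst, Zscan10 and Fgfbp1. Fst encodes follistatin, a secreted protein that binds activin and BMPs. It had 749.9 normalised reads in the 100 nM library of day 4, 549.8, 1096 and 430.3 at 500 nM, and 0 in all 6 libraries of day 5. Taking 3 reads per library as the limit for the lower day, here and below, the mean of Fst fell at least 281-fold (log2 change -9.38, SE 0.90, adjusted p = 2.96e-10 in limma, and 2.29e-08 without the 100 nM library). NMPs of day 3 had 10586 to 27999.9, and p3 of day 6 had 0 in every library. Fst was the 1 gene of the 38 that kept its call under all 29 alternatives tried.

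Zscan10, a zinc finger transcription factor of pluripotent cells, had 591, 986, 498 and 173 on day 4 and 0 in every library of day 5, a fall of at least 223-fold (adjusted p = 1.21e-05, and 0.000515 without the library). Fgfbp1, which carries FGFs from the matrix to their receptors, went from 313, 226, 147 and 343 to 0 in all 6, at least 102-fold lower (adjusted p = 2.23e-06, and 0.000113 without). Both were higher in NMPs, at 1752 to 2250.3 for Zscan10 and 3184 to 4209 for Fgfbp1. Thus all 4 libraries of day 4 held reads of these genes and no library of day 5 did.

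Wfdc2, which encodes a secreted protein of the whey acidic protein family, was even on day 4 at 90.7, 108, 103 and 99.1, and 5 of 6 libraries of day 5 had 0 while the sixth had 0.859. It was at least 39.8-fold lower (adjusted p = 0.00035, and 0.00577 without). Spink1, a secreted protease inhibitor, had 536, 103, 172 and 166 against 0 in 5 libraries and 28.3 in 1 of day 5 (log2 change -6.83, SE 1.26, adjusted p = 0.000209, and 0.00954 without). The NMP libraries held at most 8.27 of Spink1, and all 4 libraries of day 4 lay above them.

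Pmp22, a membrane protein known from peripheral myelin, fell from 833, 460.1, 1935 and 894 to between 0 and 276 with a median of 31.2 (log2 change -5.62, SE 1.05, adjusted p = 0.000274, and 0.0051 without). The days did not overlap, and the gene reached 509 in a library of day 6.

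Tmem179 and Ppm1n were at 0 in the 100 nM library of day 4, so their days overlapped. Tmem179 had 166, 27.4 and 305 at 500 nM on day 4 and 0 in all 6 libraries of day 5 (log2 change -5.12, SE 1.25, adjusted p = 0.00713). Ppm1n, of the PPM family of protein phosphatases, had 113, 546 and 245 at 500 nM on day 4 and 34.4 in 1 library of day 5, with 0 in the other 5 (log2 change -5.11, SE 1.18, adjusted p = 0.00394). Both changes were larger without the 100 nM library, at -6.82 and -7.10 on the log2 scale.

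Glycolysis genes were lower on day 5 as a list, though 2 of the 21 tested members passed the test. Eno1, the enolase of most tissues, had 36340.5 in the 100 nM library of day 4 and 37276, 25806 and 23721 at 500 nM, against 10348 to 19807 on day 5 with a median of 12853. It fell by 1.17 on the log2 scale (SE 0.16, adjusted p = 1.7e-06, and 0.000233 without the library). Eno1b, an intronless near-copy of Eno1, is listed with a like change (log2 change -1.24, adjusted p = 2.36e-05), but the counting could split reads between the pair, so its own level is uncertain. Aldoa, an aldolase, had 12113, 9531, 5909 and 5999.9 on day 4 and 1459 to 4331 on day 5 (log2 change -1.63, SE 0.34, adjusted p = 0.000969), and lost its call without the library (adjusted p = 0.0484).

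The median log2 change of the glycolysis list was -0.55, and -0.58 without the library, beside 0.09 and -0.07 over all tested genes. Its summed level was 135184 in the 100 nM library of day 4 and 90203 to 127429 in the others, and 51507 to 85498 on day 5, below every library of day 4. Gapdh (18443, 20154, 13446 and 13323 against 10542 to 14283) and Pkm (17632, 16725, 10500.2 and 13909 against 6907 to 13246), other enzymes of the pathway, were not called, with adjusted p = 0.0437 and 0.117. Slc2a1, the glucose transporter of most cells, was named after its values were seen. It had 13259, 12022, 8733 and 12754 on day 4 and 4014 to 8486 on day 5, and its log2 change of -0.99 (adjusted p = 0.000671) lay just short of 2-fold.

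**Figure D2:**
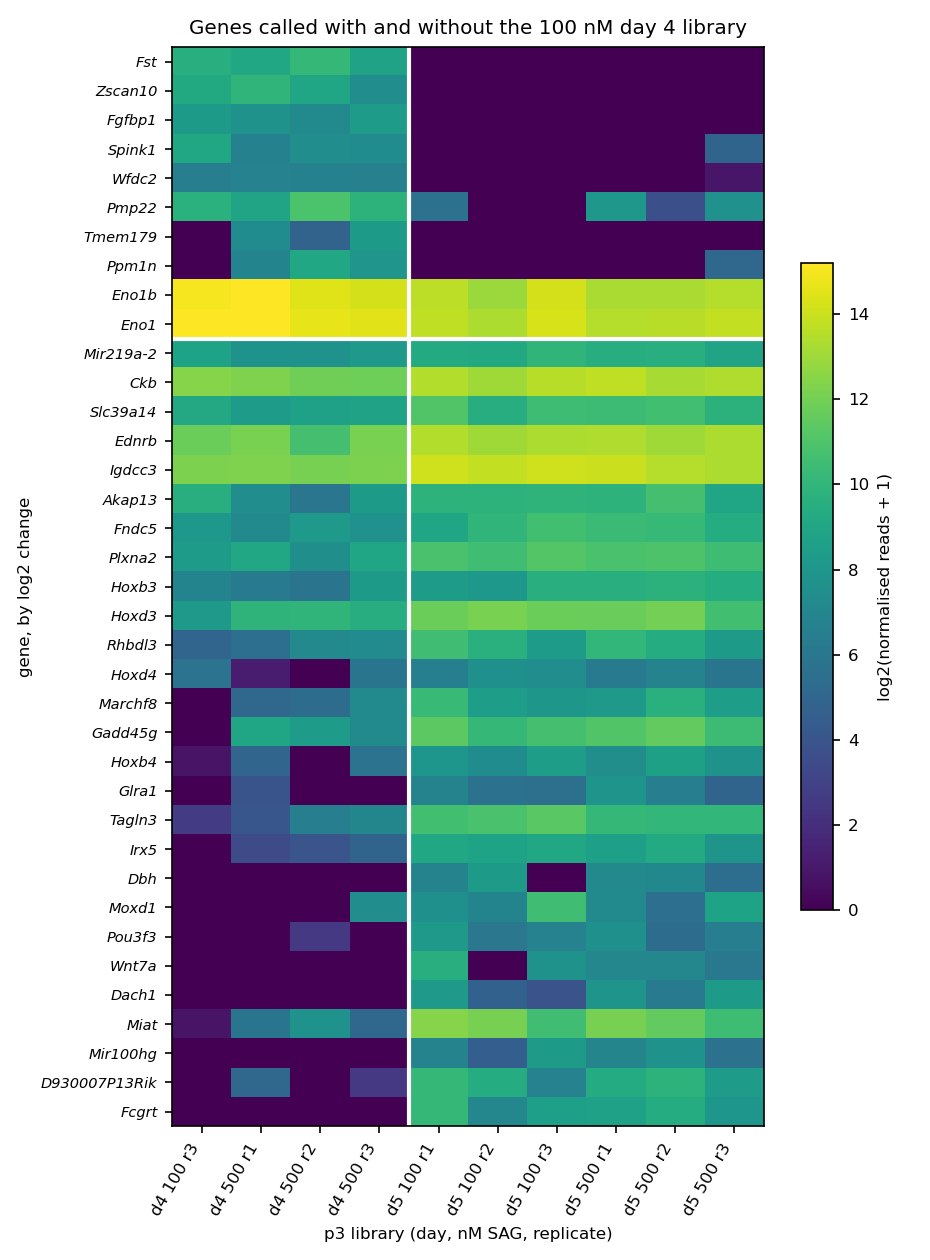
Heat map of 37 of the 38 genes called with and without the 100 nM library of day 4 (rows, from the largest fall to the largest rise), with each column 1 p3 library labelled by day, nM SAG and replicate, and colour giving log2(normalised reads + 1). Fst, Zscan10, Fgfbp1 and Tmem179 have no reads in the 6 libraries of day 5, and Dbh, Wnt7a, Dach1, Mir100hg and Fcgrt have none in the 4 of day 4.

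Hox genes formed the list with the most members called higher, 6 of 21 tested, all from paralogue groups 2 to 5, and 4 of them remained without the 100 nM library. A further 18 of the 39 listed Hox genes were too low to be tested, and 13 had no read in any of the 10 libraries. The summed level of the list was 1776 in the 100 nM library of day 4 and 1988 to 3151 in the others, against 7000 to 10357 on day 5. The median log2 change of the tested members was 2.31, and 1.91 without the library.

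Hoxd3 had 283 in the 100 nM library of day 4, 936, 968 and 721 at 500 nM, and 1563 to 4453 on day 5 with a median of 3507 (log2 change 2.31, SE 0.33, adjusted p = 3.3e-06, and 0.00188 without). Hoxb4 rose from 0.732, 29.9, 0 and 54.4 to between 164 and 399.9 (log2 change 5.08, SE 0.63, adjusted p = 1.83e-07, and 0.000113 without). For these 2 genes the lowest library of day 5 lay above the highest of day 4. An antisense gene, Gm38462, overlaps Hoxd3, and its reads cannot be told apart from those of Hoxd3 unless strand was counted.

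Hoxb3 overlapped between the days. It had 115, 76.7, 57.2 and 307 on day 4 and 279 to 883 on day 5 (log2 change 2.31, SE 0.43, adjusted p = 0.000283, and 0.0051 without), and it too has an antisense gene over it, Hoxb3os. Hoxd4 also overlapped, with 53.4, 1.3, 0 and 59.3 against 58.4 to 195 (log2 change 3.55, SE 0.86, adjusted p = 0.00617, and 0.00827 without), and it kept its call in 13 of 29 alternatives. That was the smallest number among the 4 genes.

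Hoxa2, which patterns the second branchial arch and hindbrain, had 0, 174, 1.57 and 105 on day 4 and 302 to 1033 on day 5 (log2 change 5.19, SE 0.94, adjusted p = 0.000159). Hoxb5 had 0, 0, 3.92 and 86.4 against 3.52 in 1 library of day 5 and 183 to 357 in the others (log2 change 4.79, SE 0.88, adjusted p = 0.0002). Without the 100 nM library both missed the threshold, with adjusted p = 0.054 and 0.024. Hoxb2, added after its values were seen, did not overlap between the days, at 438 to 1009.7 against 1312 to 2887, but was not called (log2 change 1.24, adjusted p = 0.0324).

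**Figure D3:**
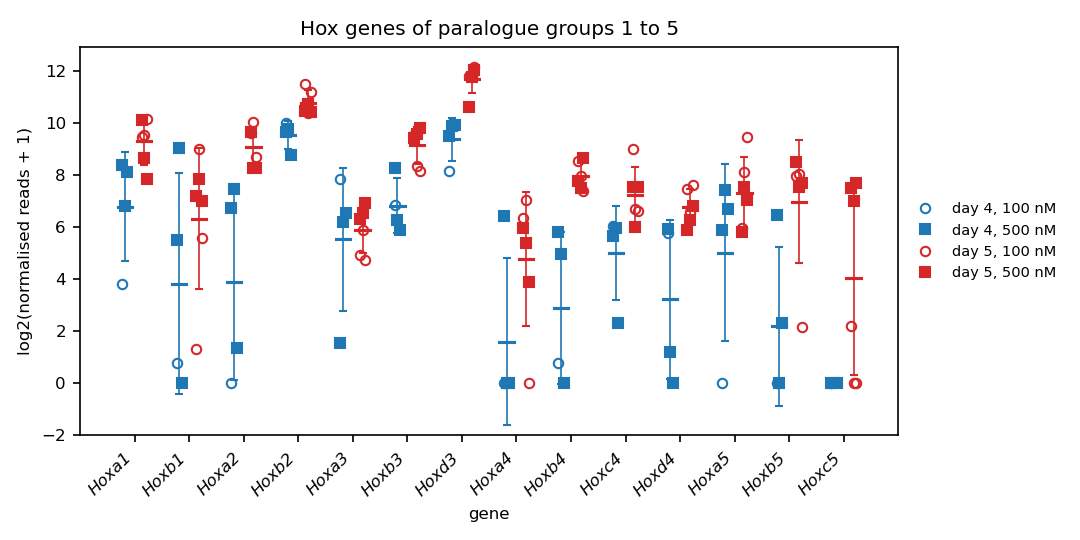
Log2(normalised reads + 1) of Hox genes of paralogue groups 1 to 5 in each p3 library, for day 4 (blue) and day 5 (red), with open circles for 100 nM and filled squares for 500 nM SAG, and bars giving the mean ± SD of the log2 values over the 4 or 6 libraries. Hoxd3 and Hoxb4 separate the days in every library, and Hoxb3 and Hoxd4 overlap in 1 or more.

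The windows of 250 bases upstream of the start are printed for 3 of these genes, since retinoic acid receptors bind pairs of the hexamer AGGTCA and these 3 were called in both fits. They are RefSeq sequences of build GRCm38.p6 on the + strand, at chr11:96318017-96318266 for Hoxb4, chr2:74711743-74711992 for Hoxd3 and chr2:74721728-74721977 for Hoxd4. Each holds 1 match, which lies on the other strand and so reads as TGACCT, shown in capitals.
Hoxb4: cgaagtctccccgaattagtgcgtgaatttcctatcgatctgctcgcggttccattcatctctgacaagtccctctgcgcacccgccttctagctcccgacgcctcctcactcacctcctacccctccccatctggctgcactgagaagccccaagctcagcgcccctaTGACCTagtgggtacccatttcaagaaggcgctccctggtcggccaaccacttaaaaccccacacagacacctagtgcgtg
Hoxd3: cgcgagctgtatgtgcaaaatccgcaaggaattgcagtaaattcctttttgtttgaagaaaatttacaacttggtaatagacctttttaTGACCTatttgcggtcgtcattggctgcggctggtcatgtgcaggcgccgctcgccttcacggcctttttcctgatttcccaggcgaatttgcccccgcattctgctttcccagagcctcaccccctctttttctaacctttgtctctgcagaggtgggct
Hoxd4: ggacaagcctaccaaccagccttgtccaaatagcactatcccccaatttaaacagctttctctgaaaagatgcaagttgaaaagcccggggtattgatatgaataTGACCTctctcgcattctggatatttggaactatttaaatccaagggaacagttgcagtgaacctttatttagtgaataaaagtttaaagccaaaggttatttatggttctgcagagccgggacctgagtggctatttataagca
AGGTCA, read on both strands, lay in 4607 (14%) of the 32851 windows of all genes and in 6 of the 34 windows of the shared genes, a share near that background. Windows were at hand for 27 of the 38 shared genes, and the others, Hoxb3 among them, were not searched. The 6 windows belong to 6 genes, these 3 Hox genes, which rose, and Eno1, Ppm1n and Wfdc2, which fell. The forkhead motif TGTTTAC lay in 1 of the 34 windows, that of Fcgrt, and in 3.17% of all windows, and the Gli motif GACCACCCA in 0 of the 34 and in 0.225% of all. A match of 6 letters is a description of the window, not a binding site.

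Iroquois genes are known from progenitors dorsal to pMN, but the pMN libraries here also held Irx5 on both days, as given below. In p3 Irx5 had 0 in the 100 nM library of day 4, 10.4, 14.9 and 29.1 at 500 nM, and 237 to 615 on day 5 with a median of 490.4. It rose by 5.68 on the log2 scale (SE 0.58, adjusted p = 1.31e-09), and by 4.65 without that library (adjusted p = 7.82e-06). Irx3 rose with the library only. It had 13.9 in that library, 65, 533 and 665 at 500 nM, and 293 to 1551 on day 5, with a log2 change of 2.38 (adjusted p = 0.00175), and 1.32 without (adjusted p = 0.377). These were the only called genes of 13 tested from the list of other progenitor domains, and 8 of its 18 genes had no read in any of the 10 libraries. The list summed to 447 to 1459 on day 4 and to 1665 to 3499 on day 5, above every library of day 4, with a median log2 change of 0.

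The neurogenesis gene that rose in both fits was Gadd45g, a growth arrest gene that proneural factors switch on in cells about to differentiate. It had 0 in the 100 nM library of day 4, 499, 336 and 152 at 500 nM, and 1137 to 2941 on day 5 with a median of 1937. Its log2 change was 4.72 (SE 0.35, adjusted p = 7.31e-14), and 2.67 without the library (adjusted p = 1.73e-05). NMPs had 819 to 2574, so the gene was low on day 4 between 2 higher stages. Its upstream window (chr13:51846425-51846674, + strand, GRCm38.p6) holds 1 E-box CAGCTG, a motif of proneural factors, given here in capitals. It occurs in 13% of all windows and in 3 of the 34 windows of the shared genes.
Gadd45g: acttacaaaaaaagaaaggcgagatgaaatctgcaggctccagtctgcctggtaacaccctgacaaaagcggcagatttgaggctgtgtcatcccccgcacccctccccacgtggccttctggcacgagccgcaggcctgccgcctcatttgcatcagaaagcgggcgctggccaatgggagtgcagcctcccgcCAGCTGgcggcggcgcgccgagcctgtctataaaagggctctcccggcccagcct

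Of 18 tested proneural and neurogenic factors limma called 2, edgeR 3 and DESeq2 10, and 7 had an unadjusted p below 0.05. The median log2 change of the list was 2.67, and 2.61 without the 100 nM library, while its sum overlapped between the days (2536 to 4302 against 4028 to 4813). Neurog2 was the other gene called. It had 0 in all 4 libraries of day 4, 0 in 2 of day 5 and 29.2 to 234 in the other 4, and it lost its call without the 100 nM library (log2 change 4.05, adjusted p = 0.00753 and 0.0619). Of 20 Notch pathway genes 4 rose, and none was called without that library. The ligand Dll1 went from 0 there and 755, 362 and 491 at 500 nM to between 341 and 1393, so its log2 change of 2.67 (adjusted p = 9.49e-06) was 0.42 without it (adjusted p = 0.825). The ligand Dll3 had 0, 87.1, 536 and 326 against 340.1 to 1857 (log2 change 4.13, and 2.14 without, adjusted p = 0.0771).

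Hes5, a Notch effector that keeps cells in the progenitor state, had 839, 2168, 1972 and 1510.4 on day 4 and 1897 to 5069.9 on day 5 (log2 change 1.30, adjusted p = 0.00423, and 0.171 without). Hes6, which counteracts other Hes proteins, had 452, 396, 706 and 219.5 against 785 to 1478, with no overlap (log2 change 1.38, adjusted p = 0.00633, and 0.0454 without). By unadjusted p below 0.05, 10 of the 20 Notch genes differed. DESeq2 called 7 of the 20 and edgeR 4.

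Neuronal genes gave a mixed picture, with 2 of 16 called higher and a median log2 change of 0.05, or -0.65 without the 100 nM library. Elavl4, a neuronal RNA-binding protein, had 65.1, 68.9, 104 and 44.7 on day 4 and 475 to 1114 on day 5 (log2 change 3.63, SE 0.75, adjusted p = 0.000975), and just missed the threshold without the library (adjusted p = 0.0161). Map2, a microtubule-associated protein of dendrites, had 0, 1.3, 168 and 345 against 143 to 686 (adjusted p = 0.00954, and 0.332 without). Tagln3, an actin-binding protein of neurons, was not on the list but rose in both fits. It had 5.12, 15.6, 91 and 126 on day 4 and 1088 to 2569 on day 5 (log2 change 5.47, SE 0.67, adjusted p = 1.67e-07, and 0.000119 without). The sum over the neuronal list was 2585 to 3154 on day 4 and 2698 to 3644 on day 5, so the days overlapped in it.

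Transcription factors outside the lists included Pou3f3, a POU factor of neural progenitors, and Dach1, a corepressor. Pou3f3 had 4.71 in 1 library of day 4 and 0 in the other 3, and 39.9 to 296 on day 5 (log2 change 6.12, SE 0.90, adjusted p = 5.44e-06, and 0.000303 without). Dach1 had 0 in all of day 4 and 13.9 to 314 on day 5, at least 56.4-fold higher (adjusted p = 0.000462, and 0.00821 without). Neither gene overlapped between the days.

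Dbh, Moxd1 and Glra1 rose in both fits. Dbh, the enzyme that turns dopamine into noradrenaline, had 0 in all 4 libraries of day 4 and 0 in 1 of day 5, and 43.8 to 311 in the other 5, its mean at least 43.5-fold higher (adjusted p = 1.59e-05, and 0.000528 without). Moxd1, a related monooxygenase, had 172 in 1 library of day 4 and 0 in 3, and 45.1 to 1486 on day 5 (log2 change 5.92, SE 1.02, adjusted p = 8.19e-05, and 0.00729 without). Glra1, a subunit of the glycine receptor, had 14.3 in 1 library of day 4 and 0 in 3, and 28.3 to 231 on day 5 (log2 change 5.25, SE 0.80, adjusted p = 9.49e-06, and 0.000699 without). Dbh was not called by edgeR (adjusted p = 0.072) or DESeq2 (0.43). Moxd1 was called by DESeq2 and not by edgeR (adjusted p = 0.0134), and Glra1 by both, with adjusted p = 0.000333 in edgeR.

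Ednrb, Igdcc3 and Plxna2 rose in both fits. Ednrb, a receptor of endothelins, had 3599, 4613, 1664 and 4486 on day 4 and 8280.4 to 11372 on day 5 (log2 change 1.56, SE 0.26, adjusted p = 4.09e-05, and 0.000699 without). Igdcc3, a cell surface protein of the immunoglobulin family, was even on day 4 at 4704, 4947, 4322 and 4747, and had 10476 to 17779 on day 5 (log2 change 1.62, SE 0.17, adjusted p = 2.67e-09, and 1.4e-07 without). Plxna2, a semaphorin receptor and the 1 called gene of 35 in the axon guidance list, had 340.2, 521, 186 and 506 against 1456 to 2230.2 (log2 change 2.30, SE 0.37, adjusted p = 1.97e-05, and 0.000699 without). All 3 separated the days in every library.

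Wnt7a, a ligand of the Wnt family, had 0 in every library of day 4 and in 1 of day 5, and 67 to 774 in the other 5, its mean at least 77.8-fold higher (adjusted p = 0.000296, and 0.00556 without). It was the 1 called gene of 29 tested in the Wnt list, whose median log2 change was 0, or -0.51 without the 100 nM library. Of 19 tested genes of the BMP and TGF-beta list, Fst fell in both fits and Id2, a target of BMP signalling, fell with the library. Id2 had 397, 1464, 1133 and 1125 on day 4 and 1.76 to 464 on day 5 (log2 change -2.64, adjusted p = 0.00878, and 0.0247 without). Id3, another Id gene, had 1654 to 2616 against 1585 to 3487 and was not called (log2 change 0.46, adjusted p = 0.558).

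Ckb, Slc39a14 and Fcgrt rose in both fits too. Ckb, the creatine kinase of brain, had 5495, 4819, 3769 and 3648 on day 4 and 8488 to 13765 on day 5 (log2 change 1.31, SE 0.24, adjusted p = 0.000212, and 0.00134 without). Slc39a14, a zinc and manganese importer, had 568, 344, 421 and 438 against 699.9 to 2166 (log2 change 1.53, SE 0.25, adjusted p = 2.56e-05, and 0.000233 without). The heavy chain of the neonatal Fc receptor, Fcgrt, was at 0 in all of day 4 and at 133 to 1136 on day 5, at least 176-fold higher (adjusted p = 0.00018, and 0.00361 without). None of these 3 overlapped between the days.

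Fndc5, the precursor of irisin, had 152 to 291 on day 4 and 510.1 to 1561 on day 5 (log2 change 2.12, adjusted p = 5.94e-05). Rhbdl3, of the rhomboid family, had 30.7 to 159 against 317 to 1464 (log2 change 3.13, adjusted p = 4.16e-06). Marchf8, a ubiquitin ligase of membrane proteins, had 0, 32.5, 40.8 and 152 against 263 to 1216 (log2 change 4.41, adjusted p = 1.49e-07). Akap13, an anchor of protein kinase A, was the 1 of this group whose days overlapped, at 737, 174, 62.7 and 312 against 507 to 1672 (log2 change 2.02, adjusted p = 0.000123). Without the 100 nM library their adjusted p was 0.000699, 0.00115, 0.00361 and 7.67e-05, in the order given.

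Miat, D930007P13Rik and Mir100hg were at 215 or below in every library of day 4 and rose in both fits. Miat, a nuclear RNA of neural cells, had 0.732, 59.8, 215 and 33 on day 4 and 1419 to 5546 on day 5 (log2 change 6.63, SE 1.01, adjusted p = 9.02e-06, and 0.00684 without). D930007P13Rik had 0, 33.8, 0 and 4.86 against 107 to 1127 (log2 change 7.05, SE 0.69, adjusted p = 4.31e-10, and 1.81e-07 without). Mir100hg, the host transcript of a microRNA cluster, had 0 in all of day 4 and 22 to 309.9 on day 5, at least 49.0-fold higher (adjusted p = 2.27e-05, and 0.000689 without). In each of the 3 every library of day 5 lay above every library of day 4.

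The annotated microRNA gene Mir219a-2 rose as well, from 442, 211, 219.6 and 289 to between 469 and 969 (log2 change 1.27, SE 0.28, adjusted p = 0.00243, and 0.00577 without). Mir219b overlaps it on the opposite strand. Libraries of polyadenylated RNA catch precursor transcripts, so these values say nothing of the mature microRNAs, whose RefSeq sequences (GRCm38.p6) are shown to identify the loci, with the seed, bases 2 to 8, in capitals. miR-219a-5p lies at chr2:29845689-29845709 on the - strand, and miR-100-5p and miR-125b-5p at chr9:41531437-41531458 and chr9:41581940-41581961 on the + strand, within Mir100hg.
mmu-miR-219a-5p: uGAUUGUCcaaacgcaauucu
mmu-miR-100-5p: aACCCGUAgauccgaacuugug
mmu-miR-125b-5p: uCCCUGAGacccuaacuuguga
No 2 of these share a seed. Reads over the annotated hairpin gene Mir100, named after its values were seen, were 0 in all of day 4 and 0 to 131 on day 5, and it was not called (adjusted p = 0.017).

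**Figure D4:**
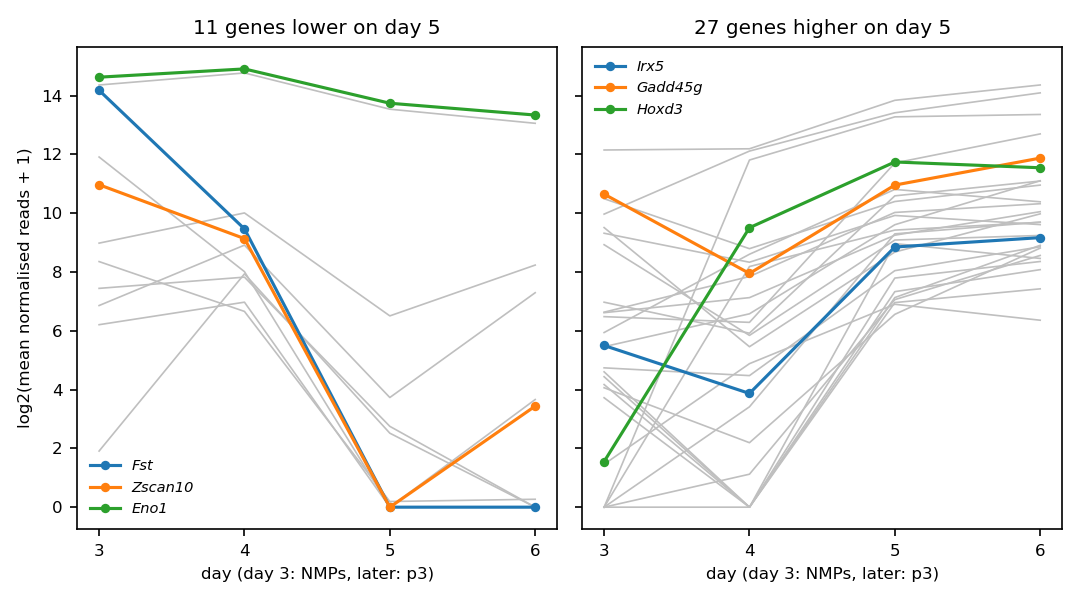
Log2(mean normalised reads + 1) of the 11 genes lower (left) and the 27 higher (right) on day 5, for 3 NMP libraries of day 3 and for 4, 6 and 5 p3 libraries of days 4, 5 and 6, with 3 genes per panel in colour. Fst and Zscan10 drop from day 3 on, and Irx5 and Gadd45g are lower on day 4 than on day 3 and higher on day 5.

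The mean of 22 of the 27 higher genes was higher again on day 6 than on day 5, and for 12 of them the day 4 mean already lay above that of NMPs. Of the 11 lower genes 4 had a lower mean on day 4 than in NMPs, among them Fst and Fgfbp1. The libraries of days 3 and 6 did not enter the choice of these genes, but those of days 4 and 5 are part of these comparisons too, so the counts carry no test.

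None of the 5 genes of the sorted proteins passed the test in limma, edgeR or DESeq2, and 1 had an unadjusted p below 0.05. Nkx2-2 had 33.7 in the 100 nM library of day 4, 59.8, 103 and 21.4 at 500 nM, and 121 to 352 on day 5 with a median of 243. The days did not overlap, and the gene was not called (log2 change 2.23, SE 0.97, adjusted p = 0.213, and 0.507 without). Olig2, whose protein was sorted against, had 103, 146, 33.7 and 415 on day 4 and 435 to 1004 on day 5 (log2 change 2.45, SE 1.25, adjusted p = 0.319).

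Sox2, the progenitor factor used to select all cells, had 593 to 1651 on day 4 and 1222 to 2479.8 on day 5 (log2 change 0.60, adjusted p = 0.352). Nkx6-1, which is shared with pMN and p2, had 143 to 744 against 361 to 733 (log2 change 0.73, adjusted p = 0.71). Pax6, a gene of more dorsal domains, had 41.8 to 877 against 60.4 to 717 (log2 change -0.18, adjusted p = 0.937). In all 3 the days overlapped widely.

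Of the 8 p3 transcription factors tested, DESeq2 called 1, limma and edgeR called 0, and 2 had an unadjusted p below 0.05. Nkx2-9, a paralogue of Nkx2-2 that comes on early in p3, had 2503, 4822, 1601 and 2870.3 on day 4 and 1135 to 2394 on day 5 (log2 change -0.75, adjusted p = 0.809), and Nkx6-2 had 1534 to 3894 against 948 to 1999 (log2 change -0.84). Rfx3, a factor of cilia genes, had 112, 506, 609 and 1065 against 683 to 1581 (log2 change 1.41, adjusted p = 0.036). Prox1 had 1.3 to 221 against 18.2 to 419.9 (log2 change 1.85, adjusted p = 0.588). Lmx1b and Sim1, factors of serotonergic and V3 neurons, were too low to be tested, with 0 on day 4 and at most 95.1 and 14.6 on day 5.

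**Figure D5:**
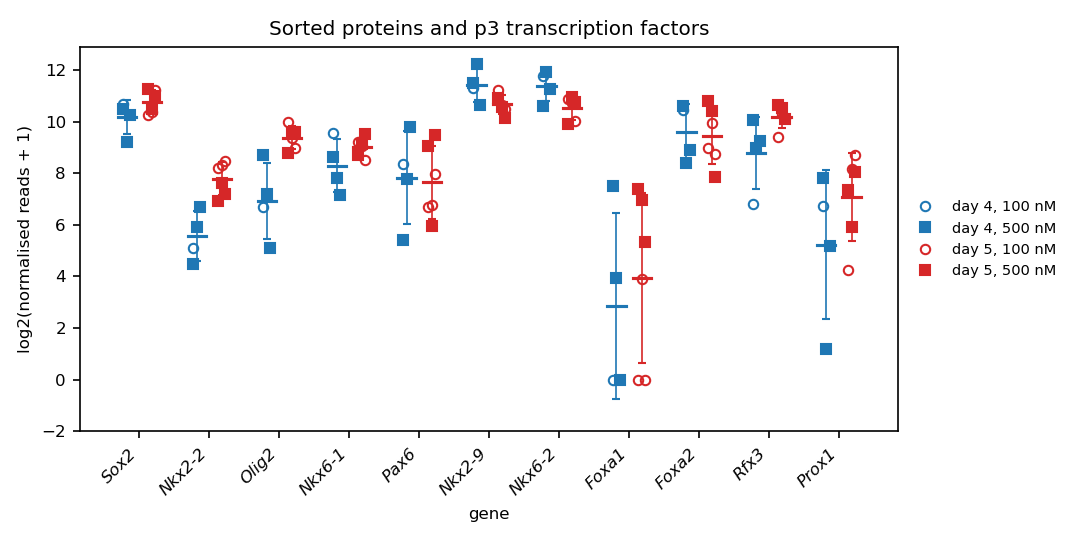
Log2(normalised reads + 1) of the genes of the sorted proteins and the tested p3 transcription factors in each p3 library, for day 4 (blue) and day 5 (red), with open circles for 100 nM and filled squares for 500 nM SAG, and bars giving the mean ± SD of the log2 values over the 4 or 6 libraries. Nkx2-2 and Olig2 lie higher in all 6 libraries of day 5 than in any of day 4, and the days overlap in the other genes.

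The floor plate borders p3 and shares some of its genes. None of the 10 tested members of that list was called by limma or edgeR, DESeq2 called 1, and 4 had an unadjusted p below 0.05. Foxa2 is a forkhead factor of the floor plate that the study also found expressed in p3 cells. It had 1379, 339, 471 and 1555 on day 4 and 232 to 1773 on day 5 (log2 change -0.13, SE 1.80, adjusted p = 0.995), and its relative Foxa1 had 0 to 179.7 against 0 to 167. The guidance genes Ntn1 (843 to 2263 against 2649 to 5294) and Slit1 (358 to 1558 against 1882 to 3967) did not overlap between the days but had adjusted p = 0.0632 and 0.407. The list had a median log2 change of 1.53, and 1.64 without the 100 nM library.

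Shh and Vtn were added after their values were seen. Shh had 66.3 in 1 library of day 4 and 0 in 3, and 0.88 to 399.7 on day 5 (log2 change 4.49, SE 1.26, adjusted p = 0.0255, and 0.209 without). Vtn, the matrix protein vitronectin, had 235 in 1 library of day 4 and 0 in 3, and 1.76 to 1158 on day 5 (log2 change 6.03, adjusted p = 0.0219, and 0.193 without). The summed floor plate list was 2732 to 7316 on day 4 and 5687 to 12296 on day 5, and 4 of the 6 libraries of day 5 lay above all of day 4. The study saw little expression of floor plate markers in its spinal cord cultures, also on day 6. The part of floor plate cells in the other changes was not tested.

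Components of the Shh pathway were uncalled in limma and edgeR, 0 of 15 tested, while DESeq2 called 4 and 8 had an unadjusted p below 0.05. The list's summed level was 15381 to 21389 on day 4 and lower in all 6 libraries of day 5, at 12348 to 15110. Its median log2 change was 0.02, and -0.17 without the 100 nM library, beside 0.09 and -0.07 over all tested genes. Ptch1, the Shh receptor and a direct target of the pathway, had 7647, 7891, 4994 and 10334 on day 4 and 3291 to 5309 on day 5 (log2 change -0.82, SE 0.30, adjusted p = 0.121). Lrp2, a co-receptor, had 2381, 2321, 2360.4 and 2678 against 183 to 1172, with no overlap (log2 change -1.78, SE 0.67, adjusted p = 0.133). Gli1, a target and effector, had 508, 1178, 1171 and 1172 against 808 to 1954 (log2 change 0.32, adjusted p = 0.895), and Smo, the protein that SAG binds, had 2649.8 to 5029.9 against 1982 to 3890.4 (log2 change -0.19, adjusted p = 0.792).

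Markers of other cells are given by the sums of their lists. Of 15 genes of the neuromesodermal list 6 had no read in any of the 10 libraries, and its sum was 0 to 629.7 on day 4 and 0 to 355.6 on day 5. The endoderm list summed to 764 to 1597 on day 4 and to 259 to 554 on day 5, below every library of day 4, with 0 of 5 tested genes called in limma and 2 with an unadjusted p below 0.05, and 4 of its 14 genes were at 0 throughout. The mesoderm and endothelium list summed to 131 to 854 on day 4 and 124 to 434 on day 5, with 6 of 18 genes at 0 throughout. The part of such cells in the called genes was not tested.

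Few cell cycle genes passed the test, as was so for all tested genes, of which 2.43% were called. In the S phase list 1 of 21 genes was called, Mcm5 of the replicative helicase, at 259 in the 100 nM library of day 4, 3136, 1377 and 1288 at 500 nM, and 2296 to 3867 on day 5 (log2 change 1.38, adjusted p = 0.00326, and 0.49 without). None of 22 genes of G2 and M phase was called in limma, edgeR or DESeq2, with 4 at an unadjusted p below 0.05. Their median log2 change was -0.31, and -0.35 without the library. Their sum was 56440 to 64029 on day 4 and 43775 to 60392 on day 5, and 5 of the 6 libraries of day 5 lay below all of day 4. Of the 17 neural progenitor genes Hes5 alone was called, and Vim (1346 to 2950.4 against 2756 to 5131, log2 change 1.11, adjusted p = 0.0135) and Nes (1885 to 3393 against 1716 to 4124, log2 change 0.03, adjusted p = 0.991), both intermediate filaments, were not. The sum of that list was 14452 to 17887 on day 4 and 20341 to 25778 on day 5, above every library of day 4.

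The 3 genes called only without the 100 nM library were seen after the fit. Hspd1, the mitochondrial chaperonin, had 7780.2 there, 13717, 9391 and 9867 at 500 nM and 4367 to 6633 on day 5, so its log2 change went from -0.97 to -1.09. Slc39a13, a zinc transporter, had 1318 there, 0, 0 and 116 at 500 nM, and 64.9 to 433 on day 5 (log2 change 3.29, and 5.31 without). Zfp503, a zinc finger repressor, had 917 there, 104, 11 and 117 at 500 nM, and 202 to 792 on day 5 (log2 change 2.13, and 3.16 without). In the last 2 the 100 nM library was the highest of day 4.

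Some of the largest changes lost their call when the 100 nM library was left out, and the 4 named here by the size of their change did not overlap between the days. Trh, the precursor of thyrotropin-releasing hormone, had 531, 192, 694 and 385 on day 4 and 29.2 in 1 library of day 5, with 0 in the other 5 (log2 change -7.85, SE 1.54, adjusted p = 0.000514, and 0.0106 without). Dpp4, a peptidase of the cell surface, had 576, 148, 53.3 and 206 against 49.8 in 1 library and 0 in 5 (log2 change -6.52, SE 1.23, adjusted p = 0.000308, and 0.0157 without). Chac2, an enzyme of glutathione breakdown, had 0.971 in 1 library of day 4 and 0 in 3, and 83.1 to 297 on day 5, at least 55.9-fold higher (adjusted p = 0.000865, and 0.0157 without). Nr3c2, the mineralocorticoid receptor, had 2.91 in 1 library of day 4 and 0 in 3, and 16 to 321 on day 5, its mean at least 48.2-fold higher (adjusted p = 0.00705, and 0.0725 without).

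Whether p3 changed unlike pMN, the neighbouring domain sorted at the same SAG concentrations, was tested as a difference of the 2 changes, with 4 pMN libraries on day 4 and 6 on day 5. The difference was called for 29 genes (0.208%), all with a more positive change in p3, and for 1 gene without the 100 nM p3 library of day 4 (0.00716%). Of the 29 genes, 23 were at 0 in that library. The remaining gene was Irx5, whose mean in pMN was 523 on day 4 and 391 on day 5, against 13.6 ± 12.1 (SD, n = 4) and 461 ± 136 (SD, n = 6) in p3. The difference of its changes was 6.12 (SE 0.82, adjusted p = 2.16e-05), and 5.09 without the library (adjusted p = 0.0044). Without that library p3 of day 4 was at 500 nM alone, and pMN of day 4 at both concentrations. At 500 nM alone 0 differences were called, so Irx5 lost its call there. It was also not called when only the compared libraries were fitted, where the 1 called gene was not among the 29.

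For the 38 shared genes the change in pMN had the same sign in 35, and 20 of the 38 were also called in pMN, where 97 genes were called in all (0.695%). Fst fell by 7.51 on the log2 scale in pMN, Gadd45g rose by 3.79 and Hoxd3 by 2.15. Marchf8 was 1 of the exceptions, with means of 326 and 269 in pMN, and the difference of 4.61 (adjusted p = 0.000498) was 3.13 without the library (adjusted p = 0.23). Dbh had 0 in pMN on both days, with a difference of 5.80 that was not called (adjusted p = 0.0158, and 0.139 without).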

How the data were processed

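The authors aligned reads of the CaTS-RNA-seq libraries to mm10 plus ERCC sequences. Their gene counts came from featureCounts, per the labels, used refGene gene models and ignored duplicate reads. They removed libraries that failed spike-in and sequence quality criteria. Whether counting used strand is not given in the sources used here. The deposited values are an expression signal, namely gene read counts that the authors divided by 1 size factor per library. 100.0% of the 834400 values above 0 were whole multiples of the smallest value of their library (tolerance 0.001), so reads could be recovered for edgeR 4.0.16 and DESeq2 1.42.0. Gene positions are other deposited values, from the annotation the authors counted over. No column belonged to another sample and 0 pairs of libraries were identical.

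Log2(value + 1), with a pseudocount of 1, was fitted with limma 3.58.1 (R 4.3.3, trended variance) for the 13964 of 25239 genes with a mean of at least 10 over all 65 libraries. The model had 25 group means and 40 residual degrees of freedom, and libraries were weighted equally within a day. Because of the pseudocount, fold changes of genes with few reads come out too small. Adjusted p-values are Benjamini-Hochberg over all genes tested, from limma unless another tool is named. A gene is called at an adjusted p below 0.01 and more than 2-fold. A fold limit sets the mean of the higher day against 3 reads per library on the lower day, which covers counting error only. The fits were tested on simulated data. Depth was 7615114 to 13484815 reads per library, without molecular identifiers.

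The groups, gene lists and members were chosen with earlier results of these data known. Genes were named by a rule: all of the sorted proteins and p3 factors, up to 4 genes of each other list (called genes first, then the most abundant), the 12 largest called changes per direction without overlap and with a mean of at least 100, and up to 5 per direction for the difference from pMN. The 38 genes called in both fits were added. Results for some genes that this rule gave are not reported here. Alternatives were another pseudocount, filter, weighting, normalisation, sample set, tool or threshold, array weights, a covariate, a replicate block, and each library left out. Those combining the 100 nM library left out with another tool or design were chosen after seeing the data.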

Additional observations from a re-analysis of the deposited data

Results flagged for a closer look

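For 90 tested genes named in the text and for the number of genes detected, the 4 libraries of day 4 and the 6 of day 5 gave 182 groups. In 25 of them the highest or lowest library stood apart from the others by Dixon's criterion. Chance meets it in about 1 of 20 groups of continuous values, but in 12 of the 25 all other libraries were at 0, where any single value meets it, so that rate does not apply to the count. On day 4 the 100 nM library was the lowest for Dll1 (0 normalised reads) and Gli1 (507.8). Library 500 nM replicate 3 was the highest for Chac2 (0.971), Moxd1 (171.9), Nr3c2 (2.91) and Vtn (235.1), replicate 1 for Glra1 (14.3) and Shh (66.3), and replicate 2 for Pou3f3 (4.71).

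On day 5 the 100 nM replicate 2 library, which had the fewest genes detected of the 6, was the lowest for Elavl4 (475.4), Hoxb5 (3.52), Id2 (1.76), Lrp2 (183.1), Vtn (1.76) and Wnt7a (0). At 100 nM replicate 3 was the lowest for Dbh (0) and Map2 (142.9), and at 500 nM replicate 2 was the lowest for Id3 (1585). The 500 nM replicate 3 library was the lowest for Hes5 (1897) and Hoxd3 (1563) and the highest for Dpp4 (49.8), Ppm1n (34.4), Spink1 (28.3), Trh (29.2) and Wfdc2 (0.859).

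A change from day 4 to day 5 that differed between p3 and pMN was called for 6 named genes on the log2 scale. The difference was 6.77 for Bcs1l (adjusted p = 0.000498, and 0.0342 without the 100 nM p3 library of day 4), 6.68 for Crnde (0.0032, and 0.19), 6.12 for Irx5 (2.16e-05, and 0.0044), 6.08 for Aldh1a2 (0.00247, and 0.0185), 4.90 for Noc4l (0.008, and 0.676) and 4.61 for Marchf8 (0.000498, and 0.23). Aldh1a2, which makes retinoic acid, had 0 in all 10 p3 libraries and a mean of 128 in pMN on day 4 and 0 on day 5.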

How the results depend on the processing

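The count of 340 genes was 194 with a pseudocount of 10, 895 with equal weight for both SAG concentrations, 24 at 500 nM alone, 6 when only the 10 libraries were fitted, 125 with concentrations pooled, 144 after quantile normalisation, 1810 with DESeq2 and 591 at an adjusted p below 0.05. Leaving out 1 library at a time gave 41 to 497 genes, and 41 was without the 100 nM library of day 4. Combined with leaving out that library, the count was 20 in edgeR, 631 in DESeq2 (278 higher, 353 lower, against 1617 and 193 with it), 9 with only the compared libraries, 50 with concentrations pooled and 45 with the replicate block. The other 7 alternatives, among them edgeR with 365, gave 331 to 377.

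The 29 differences from pMN were 2 with a pseudocount of 10, 370 with equal weight, 0 at 500 nM alone in limma (410 with an unadjusted p below 0.05), 1 with only the compared libraries, 3 with concentrations pooled, 6 after quantile normalisation, 81 in edgeR, 812 in DESeq2 and 103 at an adjusted p below 0.05. Leaving out 1 library gave 1 to 127 genes. It was 112, 114 and 127 without replicates 1, 2 and 3 of p3 at 500 nM of day 4, 18 without replicate 3 of pMN at 100 nM and 15 without replicate 2 of pMN at 500 nM of that day. Without the 100 nM p3 library the count was 2 in edgeR, 597 in DESeq2, 1 with concentrations pooled and 1 with the replicate block. The cause of these shifts was not tested.

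The difference in genes detected was -260.3 without the 100 nM library of day 4, the only change of direction, and ran from -260.3 to 876.0 over the single libraries left out. With 5 reads as the limit it was 456.1. Of the 38 genes called in both fits, 37 lost their call in at least 1 alternative. Over the named genes, 367 alternative results lost a call, 48 gained one and 2182 kept their side of the threshold, and none changed the direction of a called gene. That holds for the named genes only. Of all 340 called genes, 302 had a change of the same sign when the 100 nM library of day 4 was left out. With a single library of day 4 at 100 nM, the spread of that group is assumed to be that of the others.

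Replicate numbers were not used to pair the libraries in the main fit. At 500 nM the deviations of same-numbered libraries of the 2 days correlated at -0.00, -0.01 and 0.05 over all tested genes. Those of libraries with different numbers correlated at -0.035 to 0.033. Correlations over all genes at 1 concentration cannot settle whether the numbers pair the libraries. With the replicate number as a block 366 genes were called between the days (330 higher, 36 lower) and 39 differences from pMN.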

Other observations

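Stress genes were lower on day 5 as a sum. The list of stress and immediate early genes summed to 23148 to 35192 normalised reads in the 4 libraries of day 4 and to 17201 to 21448 in all 6 of day 5. Its median log2 change was -0.07, and -0.58 without the 100 nM library of day 4. Over all tested genes the median was 0.09, and -0.07 without it. None of its 16 tested genes was called by limma, while 2 had an unadjusted p below 0.05, DESeq2 called 3 and edgeR 0. Over all 13964 tested genes these counts were 2310 by unadjusted p in limma and 1810 in DESeq2. Hspa8, a constitutive chaperone, was the largest part and did not overlap, at 19851 to 28990.5 against 13959 to 17799.8 (log2 change -0.57, adjusted p = 0.0227).

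Genes of axon guidance were higher as a sum, at 11206 to 14591 on day 4 and 18499 to 25022 on day 5, again without overlap. Limma and edgeR called 1 of the 35 genes and DESeq2 8, and 12 had an unadjusted p below 0.05. Dnmt3b, a DNA methyltransferase of the epiblast, went from 1529, 637, 687 and 843 to between 277 and 557, without overlap and not called (log2 change -1.17, adjusted p = 0.532). In the retinoic acid list 0 of 15 genes were called in limma, edgeR or DESeq2 and 0 had an unadjusted p below 0.05. In the FGF list 0 of 19 were called in limma and edgeR, 2 in DESeq2, and 6 had an unadjusted p below 0.05.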
